A study of Triticum turgidum subsp. durum with 8 samples.

Results

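miR7757 and miR9674 were among the most abundant miRNA families of durum wheat seedling shoots. Their members were all miRNAs named miR7757, MIR7757, miR9674 or MIR9674 with any letter or suffix, with each distinct sequence counted once. This gave 30 sequences, 12 of miR7757 and 18 of miR9674, of the 1473 distinct sequences in 1532 table entries. Both families were chosen by their high normalised reads counts in these libraries, so their levels and shares are given as a description with no test. Small RNA was sequenced from shoots of seedlings aged 3 weeks. The genotypes were DBA Aurora, a variety that tolerates drought combined with heat, and L6, a breeding line that is sensitive to it. Seeds came from parents exposed to water-deficit and heat (WH) or from control (CG) parents. The progeny received either a basal nutrient solution lacking nitrogen (N) or the complete solution (C). The 8 libraries were AuCG_N, AuWH_N, L6CG_N and L6WH_N without N, and AuCG_C, AuWH_C, L6CG_C and L6WH_C with complete nutrients. Every condition was 1 library pooled from 6 plants, so no condition had a replicate, and a lower level in a shoot cannot be told apart from fewer cells that express the miRNA.

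Plant miRNAs are cut from hairpin transcripts by Dicer-like enzymes as short duplexes. Usually only one strand of the duplex is kept in an Argonaute protein, where it pairs with mRNAs that are then cleaved or repressed. In Arabidopsis the first base of a small RNA influences which Argonaute takes it up, and miRNAs slightly longer than the common length can start the production of secondary, phased small RNAs. The prefixes of the names give the grass in which a reference miRNA was registered: tae is bread wheat, ata is the goat grass Aegilops tauschii, and bdi is Brachypodium. A name ending such as 1ss6AG gives the number of substitutions against that reference. In names with MIR in capitals, p5 and p3 give the side of the hairpin on which a read lies that has no registered mature form.

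The sequences on which the results turn are written 5′ to 3′ with T as deposited, and the capitals mark bases 2 to 8, the seed. The first 4 are the leading miR7757 sequence, the sequence assigned to its opposite arm, and the 19-nt and 23-nt sequences that begin at the same base.
tae-miR7757-5p_1ss2TC: aCAAAACCttcagctatccatc
tae-MIR7757-p3_1ss19AG: tGGATAGTttgaggttttgttt
bdi-MIR7757-p5_1ss6AG: tTTATGAGctcattgaagt
bdi-MIR7757-p3_1ss6AG: tTTATGAGctcattgaagtaact

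For miR9674, the leading sequence is shown with a close relative, then the 3 sequences that differed with N supply, a form of one of them shifted by 1 base, and the sequence that differed with genotype.
tae-miR9674b-5p: aTAGCATCatccatcctaccc
tae-MIR9674a-p5: aTAGCATCatccatcctacca
ata-miR9674b-3p: tGAATTTGtccatagcatcag
tae-MIR9674a-p3_1ss4GA: tAGAATGGctggtgctatgga
ata-miR9674c-3p: gGTGCTATggataaattcaac
ata-miR9674c-5p_L+1R-1_1ss9TG: tTGAATTTgtccatagcatca
ata-miR9674a-3p_L-1R+1: tAAGATGGctgatgctatgga

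The 30 members had 20 distinct seeds, 9 in miR7757 and 11 in miR9674, and no seed was common to both families. The seed of the leading miR7757 sequence occurred in no other of the 1473 sequences. The leading miR9674 sequence shared its seed only with tae-MIR9674a-p5, with which it has its first 20 bases in common. The 4 bdi-MIR7757 sequences that begin with the same bases shared their seed with 3 sequences of other families. In the miR7757 family, 85.4% of the mean total was 22 nt long, while in miR9674 99.99% was 21 nt long. Both families began mostly with A: 82.5% of the mean total of miR7757 and 88.4% of that of miR9674, against 22.5% of the total of all sequences, of which 65.1% began with T.

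A single sequence in each family carried most of its reads. The values are the normalised reads counts of the authors, in which 1 read was worth 0.649 (L6WH_N) to 1.57 (AuCG_N), and the libraries held an estimated 0.975 to 2.31 M miRNA reads. tae-miR7757-5p_1ss2TC, with a mean of 132990, was the second most abundant of all sequences and made up 82.5% of its family. It had 161761 (AuCG_N), 114017 (AuWH_N), 107038 (L6CG_N) and 129743 (L6WH_N) in the N-starved libraries, and 151153 (AuCG_C), 127786 (AuWH_C), 151676 (L6CG_C) and 120750 (L6WH_C) in the control libraries. The highest library was AuCG_N and the lowest L6CG_N, which differed 1.51-fold, and the N and C ranges overlapped. tae-miR9674b-5p, with a mean of 111364, ranked 4 among all sequences and made up 83.0% of its family. It had 128979, 103871, 94486 and 113375 in the N-starved libraries, and 139332, 130317, 103959 and 76591 in the control libraries, in the same order of seed groups (AuCG, AuWH, L6CG, L6WH). Both the highest and the lowest value lay in control libraries, AuCG_C and L6WH_C. On the log2 scale the SD over the 8 libraries was 0.21 for tae-miR7757-5p_1ss2TC and 0.28 for tae-miR9674b-5p, against a median of 0.47 for the 98 sequences with a mean of 1000 or more. Of these 98, 10 varied less than the first and 21 less than the second.

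**Figure D1:**
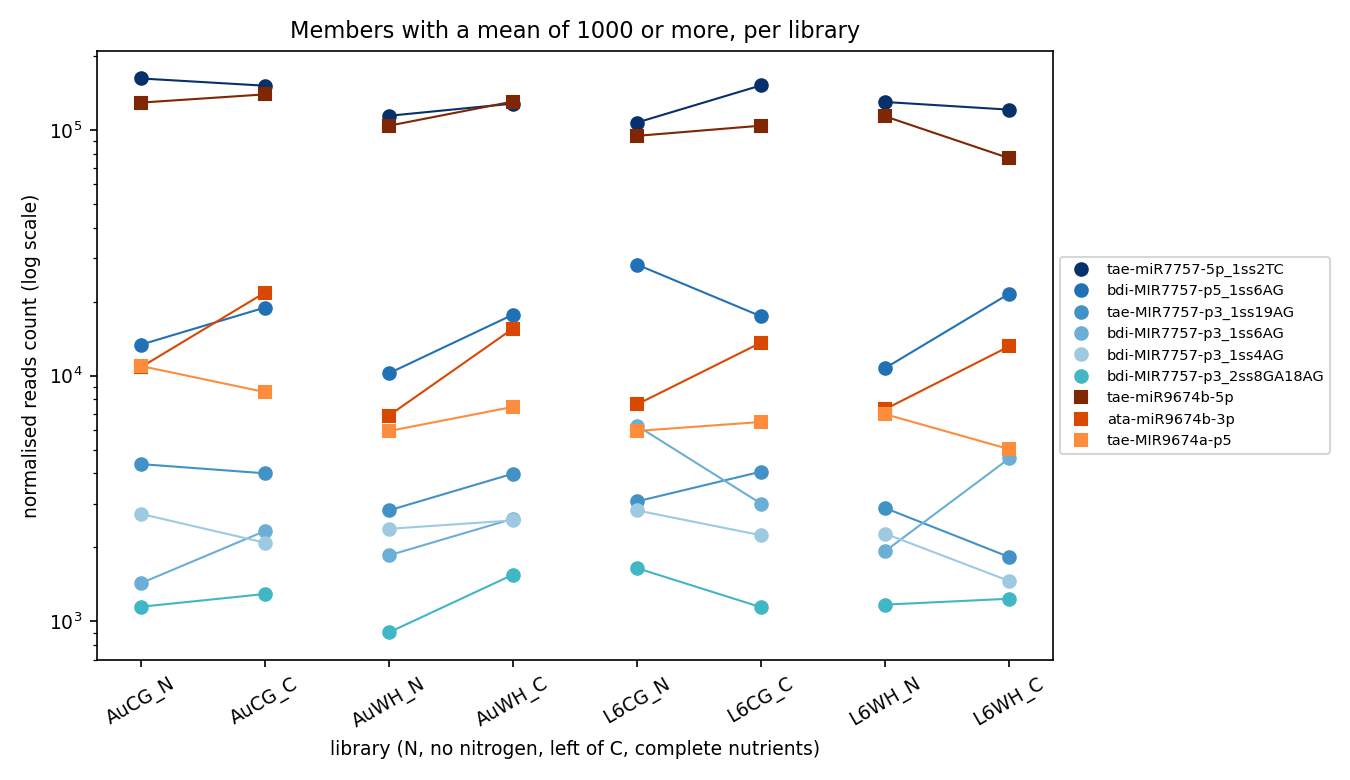
Normalised reads count (log axis) of the 9 members with a mean of 1000 or more in each library; circles are miR7757, squares miR9674, and lines join the N and C library of a seed group. The 2 leading sequences lie between 76591 and 161761 in every library, and ata-miR9674b-3p is lower in N than in C in all 4 seed groups.

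The miR7757 family held 12.1 ± 1.67% (SD, n = 8) of a library's total and miR9674 held 10.03 ± 1.72%. Among families they ranked 3 and 4 in each of the 8 libraries. The share of both together was 21.9% (AuCG_N), 18.8% (AuWH_N), 19.6% (L6CG_N) and 18.7% (L6WH_N) without N, and 26.8% (AuCG_C), 24.5% (AuWH_C), 23.6% (L6CG_C) and 23.4% (L6WH_C) with complete nutrients. The exact 95% binomial interval of the L6WH_N share was 18.66 to 18.76%; such intervals cover counting error only. All 4 N-starved libraries thus had a smaller share of the miRNA total than all 4 control libraries, although the family totals overlapped. For miR9674 alone the shares overlapped, with 9.92% in AuCG_N against 9.78% in L6CG_C and 9.18% in L6WH_C. Of all clear reads, those left after the authors' filtering, both families together held 2.18 to 2.47% in N and 2.02 to 2.65% in C. On that scale the N and C libraries were not separated. Library totals were 1334570 to 1555730 in N and 1072420 to 1322310 in C. miR7757 averaged 154832 ± 22432 in N and 167552 ± 15078 in C, and miR9674 averaged 129134 ± 18523 in N and 139077 ± 32919 in C (SD, n = 4 libraries each). The miR396 family, the most abundant by its mean share, held 22.5 to 29.7% of the N libraries and 15.5 to 22.05% of the C libraries; its part in the smaller share was not tested.

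**Figure D2:**
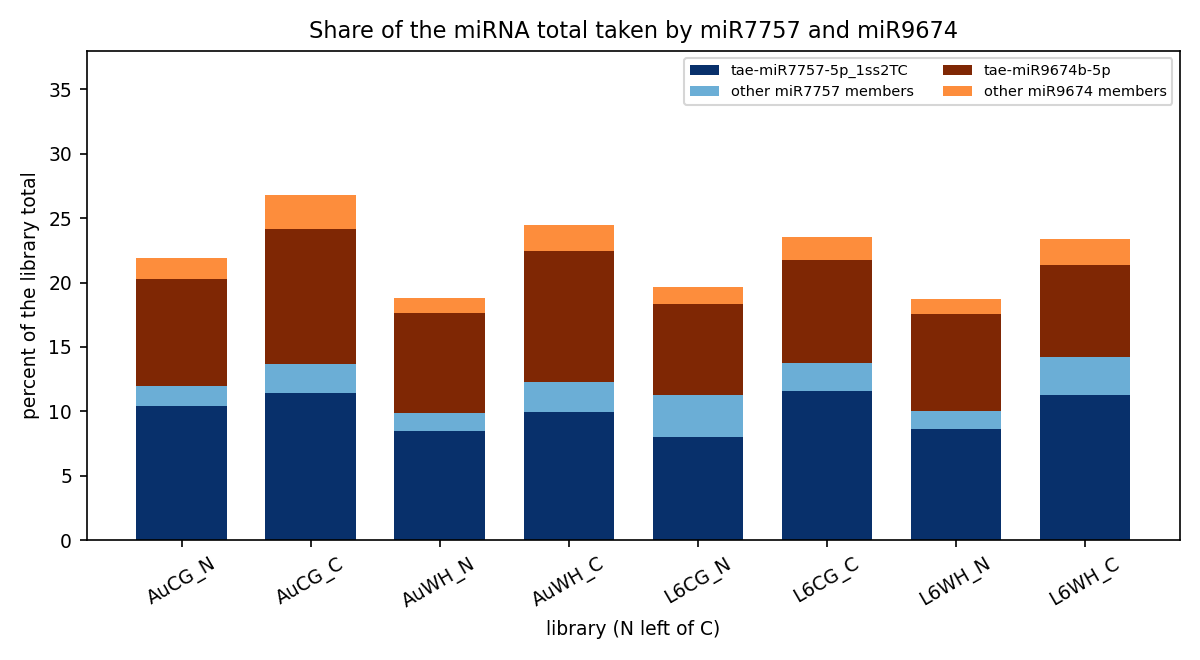
Percent of the normalised miRNA total of each library taken by the leading sequence and by the other members of the 2 families, N left of C in each seed group. The stacked bars reach 18.7 to 21.9% in N and 23.4 to 26.8% in C.

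The remaining miR7757 members were of lower level and of more varied pattern. bdi-MIR7757-p5_1ss6AG, the 19-nt sequence, had 13352, 10220, 28283 and 10741 in the N-starved libraries (AuCG, AuWH, L6CG, L6WH) and 18912, 17704, 17420 and 21567 in the control libraries. Its 23-nt extension, bdi-MIR7757-p3_1ss6AG, had 1430, 1857, 6254 and 1934 in N, and 2331, 2617, 3013 and 4610 in C. For both, N was below C in 3 seed groups and above C in L6CG, and L6CG_N was the highest library of all. The 19-nt form outnumbered the 23-nt form 4.52 to 9.34 times. tae-MIR7757-p3_1ss19AG, assigned to the arm opposite the leading sequence, had 4367, 2829, 3079 and 2891 in N, and 4006, 3992, 4069 and 1827 in C. It differs from that hairpin at 1 base and matched exactly only in another deposited hairpin, at chr3A:701734118-701734139 on the minus strand. The leading sequence exceeded tae-MIR7757-p3_1ss19AG 32.0 to 66.1 times, most in L6WH_C, where the latter was lowest.

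bdi-MIR7757-p3_1ss4AG had 2740, 2381, 2830 and 2274.9 in the N-starved libraries, and 2092, 2577, 2241 and 1460 in the control libraries. bdi-MIR7757-p3_2ss8GA18AG had 1147, 902, 1648 and 1171 in N, and 1293, 1550, 1142 and 1237 in C. Neither separated the N from the C libraries. The 6 weaker members were bdi-MIR7757-p3_2ss6AG23TA (277 to 1133), bdi-MIR7757-p5_2ss6AG20AT (229 to 741), tae-MIR7757-p3_2ss4TC22AG (20.8 to 100.3), tae-MIR7757-p5_1ss14TC (listed in 7 libraries, up to 23.4), tae-MIR7757-p5_2ss21AG22TG and bdi-MIR7757-p3_1ss12GT. tae-MIR7757-p5_2ss21AG22TG was listed at 5.09 (AuWH_N), 5.84 (L6WH_N), 19.7 (AuWH_C) and 3.59 (L6WH_C) in the libraries from WH parents and at 0 in the 4 from CG parents, but 5 reads corresponded to 3.25 to 7.84, and almost nothing under 5 reads was listed. bdi-MIR7757-p3_1ss12GT was listed only in L6CG_C, at 6.47.

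In miR9674, ata-miR9674b-3p was the second most abundant member and tae-MIR9674a-p5 the next. tae-MIR9674a-p5 had 10949, 5950, 5958 and 6967 in the N-starved libraries, and 8575, 7463, 6479 and 5020 in the control libraries. It differs from the leading sequence in its last base only, and of all members its profile was the most like that of the leading sequence (root mean square difference of centred log2 values 0.168 over 8 libraries). ata-MIR9674b-p5 was steady (559 to 821), and ata-miR9674a-3p_2ss4AG13AG (360 to 683) and ata-miR9674c-5p_L+1R-1_1ss9TG (229 to 491) were more variable. The lower members were tae-MIR9674a-p3_1ss20GT (81.5 to 202.8), tae-MIR9674a-p3_2ss19GA20CA (73.3 to 144.6) and ata-MIR9674c-p3_2ss10AG18AG (29.3 to 52.6). ata-miR9674b-3p_R+2 was listed in 6 libraries (up to 18.8) and ata-miR9674c-3p_1ss8TC in 5 (up to 14.3). tae-MIR9674a-p3_2ss20GA21CA was listed in AuCG_C (5.37) and L6WH_N (3.25). ata-miR9674b-3p_R+2_1ss21GT (7.18), tae-MIR9674a-p3_1 (5.03) and tae-MIR9674a-p3_2 (5.03) were listed in L6WH_C only, one of the deeper libraries.

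The members were assigned to 19 hairpins of the 1170 in the table. Positions are those of the durum wheat assembly Svevo.v1. Chromosome names were matched to the deposited contigs by their annotated genes. The 7 hairpins of miR7757 lie on chromosomes 3A and 3B, and the 12 of miR9674 on 3B, 4B, 5A, 6A and 6B, with 6 of them on 4B. Of the 19 hairpins, 6 overlap annotated protein-coding genes: 2 at chr3A:702165169-702165608 lie in TRITD_3Av1G264020, 1 at chr3B:777146794-777146913 lies in TRITD_3Bv1G258070, and 3 at chr5A:651137969-651139032 lie in TRITD_5Av1G251150. Exons and UTRs were not resolved, because only the extent of each gene was at hand. Of the 30 members, 23 matched at least 1 of these hairpins without a mismatch, 10 of them several hairpins, and 7 matched none exactly. Reads of the 10 cannot be assigned to a single locus. The genome outside the deposited hairpins was not searched, so a match at 1 hairpin does not give a single origin.

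No hairpin held the leading miR7757 sequence in full. Its own hairpin (chr3A:702165265-702165608, plus strand, in TRITD_3Av1G264020) differed from it at 1 base, while 2 other hairpins ended with its first 21 bases. Both also hold the 19-nt and 23-nt sequences, and the 3B hairpin is shown. It spans chr3B:776833028-776833177 on the plus strand, outside annotated genes, and the capitals mark bdi-MIR7757-p3_1ss6AG and then the first 21 bases of tae-miR7757-5p_1ss2TC.
miR7757 hairpin on 3B: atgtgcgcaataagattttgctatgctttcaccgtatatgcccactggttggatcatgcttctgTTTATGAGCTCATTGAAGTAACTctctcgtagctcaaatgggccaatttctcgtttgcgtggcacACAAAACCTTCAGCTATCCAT
At this site and at both 3A sites the first base of the leading sequence lay 65 bases downstream of the first base of bdi-MIR7757-p5_1ss6AG. bdi-MIR7757-p3_2ss8GA18AG began 22 bases downstream of the same point, exactly at the plus-strand 3A site and with 2 mismatches at the others. The 19-nt and 23-nt sequences, named for opposite sides of the hairpin, thus began at the same base at all 3 sites. The predicted folding energy of the miR7757 hairpins was -0.059 to -0.296 kcal/mol per base, weaker than the medians of the hairpins in the authors' evidence groups 1 (-0.505) and 3 (-0.334), to which they belong. That of the miR9674 hairpins was -0.405 to -0.590. Most of these were also weaker than the median of their group, -0.505 in group 1 and -0.565 in group 2. The exceptions were chr3B:695819888-695819986 (-0.590, group 2) and chr4B:660673193-660673281 (-0.542, group 3).

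**Figure D3:**
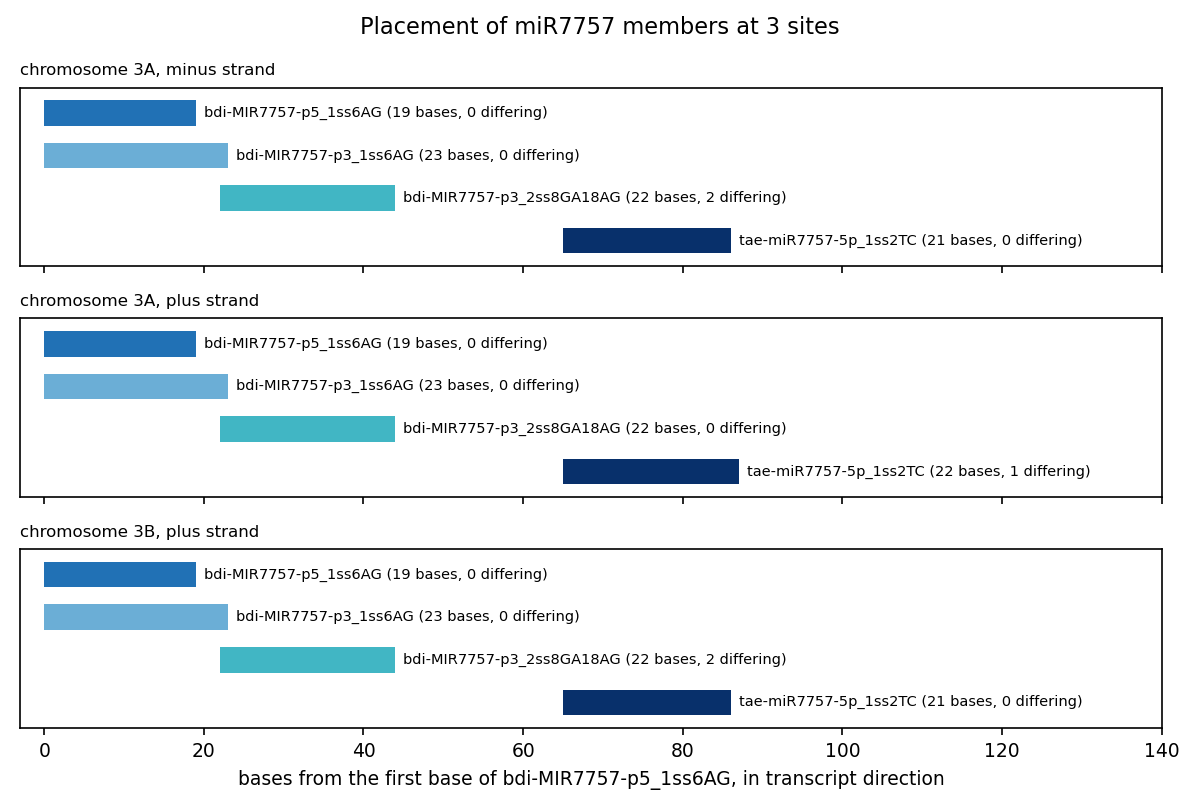
Placement of 4 miR7757 members at 3 sites, in bases from the first base of bdi-MIR7757-p5_1ss6AG; bars span the matched bases, and the labels give how many were matched and how many differed. At each site the leading sequence begins at 65, and at 2 of the sites the hairpin ends after 21 of its 22 bases.

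tae-miR9674b-5p matched exactly at 2 hairpins, on 4B (chr4B:660673352-660673372, minus strand) and on 6B (chr6B:31629021-31629041, plus strand), both outside annotated genes. Its own hairpin, on 4B at chr4B:660673291-660673382, is shown with the leading sequence in capitals and, on the other arm, the stretch to which ata-miR9674a-3p_L-1R+1 was assigned. That stretch differs from ata-miR9674a-3p_L-1R+1 at 1 base.
miR9674 hairpin on 4B: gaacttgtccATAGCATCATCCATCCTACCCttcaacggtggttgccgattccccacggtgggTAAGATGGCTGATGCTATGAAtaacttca
A second hairpin, at chr4B:660673193-660673281, lies 9 bases away on the same strand. ata-miR9674b-3p matched exactly in 5 hairpins (1 on 3B, 3 on 4B, 1 on 6A), and ata-miR9674c-3p in 3 of these same hairpins (chr3B:695819888-695819986, chr4B:660673193-660673281 and chr6A:18283657-18283866, all on the minus strand). In each of the 3, ata-miR9674b-3p lies upstream and ata-miR9674c-3p downstream, with 41 to 45 bases between them, although both names end in 3p. ata-miR9674c-5p_L+1R-1_1ss9TG begins 1 base upstream of ata-miR9674b-3p in 3 hairpins. Among the 19 hairpins, tae-MIR9674a-p3_1ss4GA matched exactly at 1, on 4B (chr4B:658624572-658624592, minus strand).

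Progeny N starvation was tested with limma, in an additive model of N supply, parents and genotype on log2(normalised reads count + 1) over the 8 libraries. It covered 605 sequences with a mean of 10 or more, 21 of them members (9 of miR7757 and 12 of miR9674), with Benjamini-Hochberg adjustment over all 605. Its p-values rest on the spread that the additive model leaves over 4 pairs of pooled libraries, not on replicate plants. In miR9674, 2 members fell, 1 rose, and neither leading sequence passed. That is 3 of 21 members called, against 25% of all tested sequences. By direction, 2 of 21 were lower, against 15.4% of all tested, and 1 of 21 was higher, against 9.59%. None of the 9 tested miR7757 members passed. The median change was -0.08 for the 21 members (-0.03 for miR7757 and -0.12 for miR9674) and -0.06 for all 605.

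ata-miR9674b-3p had 10804 (AuCG_N), 6876 (AuWH_N), 7640 (L6CG_N) and 7308 (L6WH_N) in the N-starved libraries, and 21744 (AuCG_C), 15536 (AuWH_C), 13628 (L6CG_C) and 13171 (L6WH_C) in the control libraries. The highest N library lay below the lowest C library. It fell by 0.97 on the log2 scale (SE 0.18, 95% interval -1.38 to -0.56, limma adjusted p = 0.00794).

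tae-MIR9674a-p3_1ss4GA had 553, 462, 799 and 391 in N, and 1184, 815, 1200 and 1254 in C, again without overlap, though the highest N and the lowest C library were close. It fell by 1.04 (SE 0.22, 95% interval -1.56 to -0.53, limma adjusted p = 0.0129). Both falls were seen in each of the 4 seed groups.

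ata-miR9674c-3p moved the other way. It had 1303 (AuCG_N), 962 (AuWH_N), 860 (L6CG_N) and 938 (L6WH_N) in N, and 620 (AuCG_C), 692 (AuWH_C), 695 (L6CG_C) and 552 (L6WH_C) in C. All N libraries exceeded all C libraries. It rose by 0.65 (SE 0.19, 95% interval 0.20 to 1.11, limma adjusted p = 0.0446). The call was lost without any single library other than L6CG_N (7 of 8 libraries, limma adjusted p 0.0551 to 0.161), when library totals were set equal (0.141), without a filter on low values (0.0733) and with matched libraries as a block (0.0712).

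ata-miR9674b-3p and ata-miR9674c-3p, which share 3 hairpins, thus moved in opposite directions. The ratio of the first to the second was 8.29 (AuCG_N), 7.14 (AuWH_N), 8.88 (L6CG_N) and 7.79 (L6WH_N) without N, and 35.1 (AuCG_C), 22.5 (AuWH_C), 19.6 (L6CG_C) and 23.9 (L6WH_C) with complete nutrients. This ratio does not depend on the scaling of a library. It was formed after the values of both sequences had been seen and is given with no test. The form shifted by 1 base, ata-miR9674c-5p_L+1R-1_1ss9TG, had a mean of 354 and a change of -0.15 (SE 0.25, 95% interval -0.72 to 0.42, limma adjusted p = 0.717). bdi-miR5064_L-2R+2, which is named for another family but shares 19 bases with ata-miR9674b-3p, had a mean of 528 and a change of -0.33 (SE 0.21, limma adjusted p = 0.318). Whether these overlapping forms changed less than ata-miR9674b-3p was not tested.

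**Figure D4:**
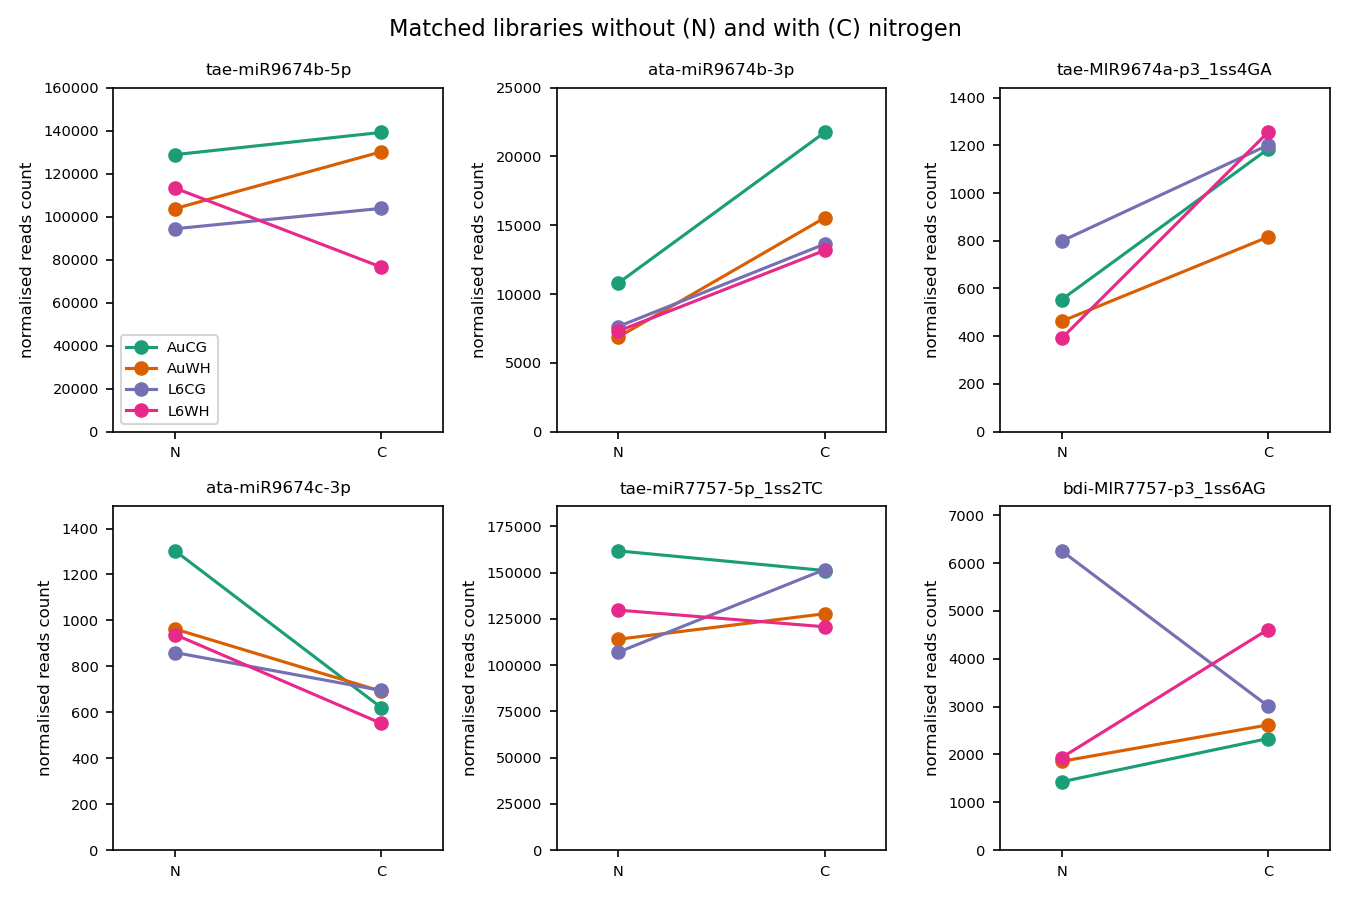
Normalised reads counts of 6 members, with each line joining the N and the C library of a seed group (linear axes from 0). ata-miR9674b-3p and tae-MIR9674a-p3_1ss4GA are lower in N in all 4 seed groups, ata-miR9674c-3p is higher in all 4, and bdi-MIR7757-p3_1ss6AG is higher in N only in L6CG.

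The leading sequences had changes of -0.12 (tae-miR7757-5p_1ss2TC, 95% interval -0.52 to 0.29, limma adjusted p = 0.691) and -0.0027 (tae-miR9674b-5p, 95% interval -0.43 to 0.43, limma adjusted p = 0.993). bdi-MIR7757-p5_1ss6AG (-0.40, SE 0.28, adjusted p = 0.374) and bdi-MIR7757-p3_1ss6AG (-0.35, adjusted p = 0.566) did not pass. Without L6CG_N they were at -0.71 (adjusted p = 0.0282) and -0.80 (adjusted p = 0.0280), so that this library decided both calls. tae-MIR7757-p3_2ss4TC22AG, a low member, had 100.3, 76.4, 40.0 and 61.0 in N, and 27.7, 71.0, 26.9 and 20.8 in C, with a change of 0.995 (SE 0.35, limma adjusted p = 0.0805); it passed without AuWH_C (1.26, adjusted p = 0.0486) and with quantile normalization of all 8 libraries (1.27, adjusted p = 0.0293).

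**Figure D5:**
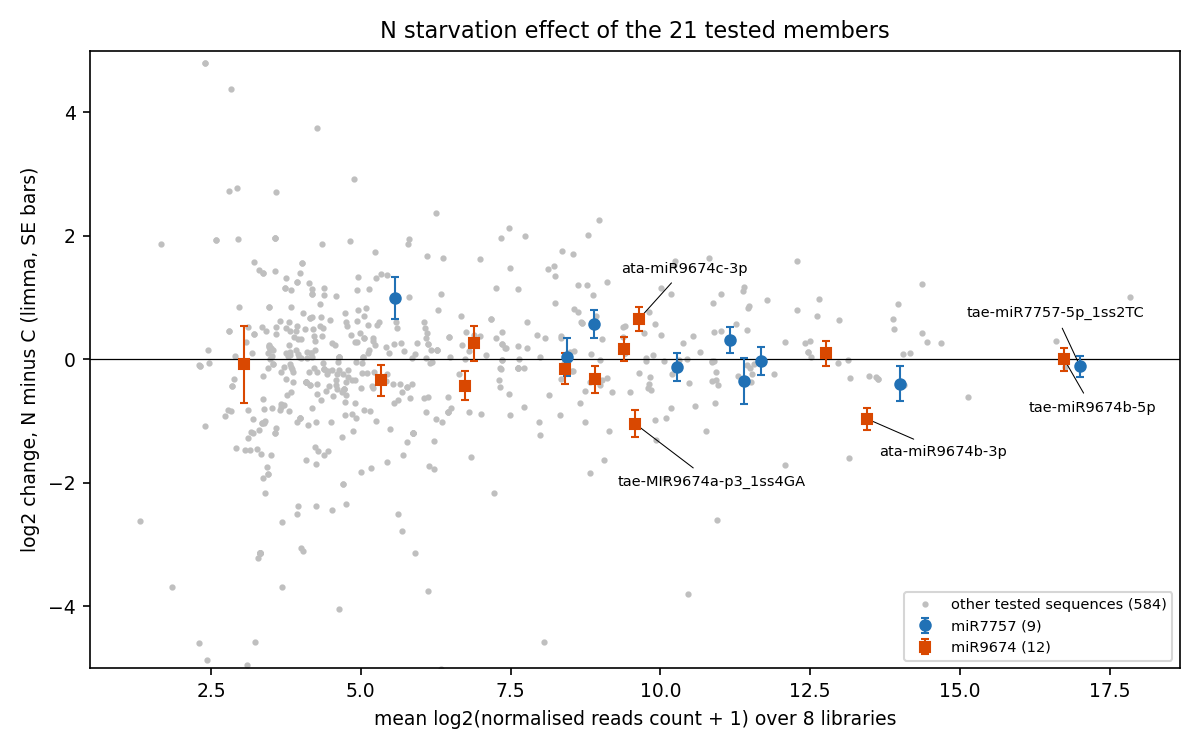
Change with N starvation (log2, N minus C) against mean log2 level for 605 sequences, with SE bars for the 21 tested members; 19 of the 584 other sequences lie outside the plotted range. The members lie between -1.04 and 0.995, and the 2 leading sequences lie near 0 at the right.

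Family totals gave 0 of 2 calls, against 25% of the 104 families tested. The miR7757 total had a change of -0.12 (SE 0.13, 95% interval -0.40 to 0.16) and the miR9674 total one of -0.09 (95% interval -0.42 to 0.25), and neither reached an unadjusted p of 0.05 in limma. The ratio of both arms of a hairpin, as assigned in the deposited table, was fitted for 148 hairpins, where 0 of 7 with a member were called with N, against 4.73% of all. The lowest p among them had ata-MIR9674b-p5 over ata-miR9674b-3p, at 0.061, 0.119, 0.101 and 0.085 in N and 0.027, 0.036, 0.050 and 0.055 in C, with a change of 1.13 (SE 0.32, limma adjusted p = 0.106). Not all 7 compare opposite arms. bdi-MIR7757-p5_1ss6AG and bdi-MIR7757-p3_1ss6AG begin at the same base, as do bdi-MIR7757-p5_2ss6AG20AT and bdi-MIR7757-p3_2ss6AG23TA. A further pair set ata-miR9674a-3p_2ss4AG13AG against bdi-miR5064_L-2R+2, named for another family.

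A list of other wheat-registered families was taken as miR9652 to miR9679 and miR9772 to miR9783, without miR9674. It leaves out wheat families with other numbers and includes miR9678, which is also in the next list. In it, 12 sequences rose and 7 fell of the 91 tested (of 198 listed) with N starvation, against 9.59% higher and 15.4% lower among all 605. Of the families known to trigger phased small RNAs or to target disease resistance genes (miR2118, miR482, miR2275, miR9863 and miR9678), 1 sequence rose and 0 fell of 9 tested (of 15 listed), against the same shares of 9.59% and 15.4%.

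Parental stress called no member: 0 of 21, against 0% of the 605 sequences. In limma 10 of the 605 had an unadjusted p under 0.05, among them 1 member, ata-miR9674a-3p_L-1R+1 (-1.79, unadjusted p = 0.0226 in limma). Its value depends on the pseudocount, because 2 of the 4 WH libraries were listed at 0, and was -0.88 with a pseudocount of 5 and -2.25 with 0.5. Progeny of WH parents had lower fitted levels than progeny of CG parents for 19 of the 21 members, with a median of -0.20, against 328 of 605 and a median of -0.03 for all. Several members overlap in sequence and all share libraries and scaling, so the 19 are not independent. Of the phased-RNA and resistance-gene families listed above, 9 of 9 tested sequences were also lower (median -0.17). In the list of other wheat-registered families, which shares miR9678 with these, 44 of 91 were lower (median 0.0009). For tae-miR7757-5p_1ss2TC the WH libraries had 114017 (AuWH_N), 127786 (AuWH_C), 129743 (L6WH_N) and 120750 (L6WH_C), and the CG libraries 161761 (AuCG_N), 151153 (AuCG_C), 107038 (L6CG_N) and 151676 (L6CG_C). L6CG_N was the exception, below all WH libraries, and the change was -0.20 (95% interval -0.60 to 0.20). For tae-miR9674b-5p the change was -0.15 (95% interval -0.57 to 0.28). Family totals and arm ratios gave 0 calls, as they did over all features (0%).

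Between the genotypes, 1 of 21 members was called, against 2.64% of all tested sequences (2.31% for lower in DBA Aurora). ata-miR9674a-3p_L-1R+1, which was assigned to the arm opposite the leading miR9674 sequence, had 7.84 (AuCG_N), 5.37 (AuCG_C), 0 (AuWH_N) and 0 (AuWH_C) in DBA Aurora, and 34.1 (L6CG_N), 26.9 (L6CG_C), 12.3 (L6WH_N) and 28.0 (L6WH_C) in L6. All L6 libraries lay above all DBA Aurora libraries. The DBA Aurora values were near or under the level of 5 reads, under which almost nothing was listed. That level was 7.84 (AuCG_N), 4.47 (AuCG_C), 5.09 (AuWH_N) and 6.57 (AuWH_C), so the size of the difference is uncertain. The fitted change of -3.18 (SE 0.63, 95% interval -4.64 to -1.72, limma adjusted p = 0.0487) depends on the pseudocount because of the libraries listed at 0, and was -1.94 with a pseudocount of 5. The call was lost with a pseudocount of 0.5 (limma adjusted p = 0.0807), without a filter on low values (0.0815), with matched libraries as a block (0.0999) and without AuCG_C, AuWH_N, AuWH_C, L6CG_N, L6WH_N or L6WH_C (0.102 to 0.160). tae-miR9674b-5p was assigned to the same hairpin but also matched a 6B hairpin exactly, and ata-miR9674a-3p_L-1R+1 differed from the hairpin at 1 base. Their reads thus cannot be placed at a single hairpin. tae-miR9674b-5p had 128979, 139332, 103871 and 130317 in DBA Aurora and 94486, 103959, 113375 and 76591 in L6 (AuCG or L6CG without and with N, then AuWH or L6WH). Its change was 0.38 (95% interval -0.05 to 0.81, limma adjusted p = 0.399). The log2 ratio of the arms as assigned, tae-miR9674b-5p over ata-miR9674a-3p_L-1R+1, was higher in DBA Aurora by 3.56 (SE 0.61, limma adjusted p = 0.0698). Of the arm ratios, 0 of 7 were called, against 0.676% of all. Family totals gave 0 of 2 calls, against 2.88%, with changes of 0.05 for miR7757 and 0.36 for miR9674 (limma adjusted p = 0.276). tae-miR7757-5p_1ss2TC had a change of 0.12 (95% interval -0.28 to 0.53).

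The interactions of parental stress with N, genotype with N and genotype with parental stress each called 0 of 21 members and 0 of 605 sequences in limma (0%). At an unadjusted p under 0.05 they had 10, 34 and 19 sequences and 0 members each. In bdi-MIR7757-p5_1ss6AG, N was above C in L6CG and below it in the other seed groups. That pattern involves parents and genotype together, so none of the fitted interactions measures it alone. For this sequence the interaction of parental stress with N was -0.998 (SE 0.48, limma adjusted p = 0.995). That of genotype with N was -0.494 (SE 0.59, limma adjusted p = 0.931).

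Single pairs of libraries were compared with the thresholds of the study, p under 0.05 and a log2 ratio past 1. Its methods name the chi-square test and Fisher's test; here Fisher's exact test was run on the rounded counts, which gave 70 member calls over the 12 pairs, against 74 with the chi-square test. This compares libraries and not conditions, and a sequence listed at 0 in 1 of the 2 passes easily. For N starvation the rule called 7 of 24 members in AuCG (58.3% of all sequences), 4 of 24 in AuWH (44.7%), 6 of 25 in L6CG (49.2%) and 8 of 29 in L6WH (35.1%). For parental stress it called 3 of 26 in AuWH_C against AuCG_C (29.3%), 5 of 24 in AuWH_N against AuCG_N (46%), 7 of 29 in L6WH_C against L6CG_C (37.6%) and 8 of 26 in L6WH_N against L6CG_N (26.8%). For genotype it called 4 of 26 in AuCG_C against L6CG_C (31.7%), 9 of 24 in AuCG_N against L6CG_N (59.3%), 7 of 28 in AuWH_C against L6WH_C (49.5%) and 2 of 26 in AuWH_N against L6WH_N (18.7%). Neither leading sequence was called in any of the 12 pairs. The share of members called was below that of all sequences in 11 of the 12 pairs, the exception being L6WH_N against L6CG_N.

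The 3 sequences of other families whose profile over the 8 libraries was most like that of tae-miR7757-5p_1ss2TC were hvu-MIR5049d-p3_1ss3TA (root mean square difference of centred log2 values 0.168), tae-miR1122b-3p_1ss11GT (0.169) and bdi-MIR5064-p5_1 (0.170). bdi-MIR5064-p5_2 had the same distance (0.170) and the same mean (163.97) as the last of these, so it is not counted as a separate likeness. Of their bases, bdi-MIR5064-p5_1 shares 18 and bdi-MIR5064-p5_2 shares 16 with ata-miR9674b-3p. For tae-miR9674b-5p the 3 most alike were hvu-MIR5049d-p3_1ss3TA (0.151), tae-miR1122c-3p (0.191) and ata-miR172b-3p (0.197). The leading sequences of both families differed from each other by 0.216. The 8 points share their libraries and scaling, and all of these sequences varied little.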

How the data were processed

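Total RNA of 6 plants per condition was pooled by the authors, and 8 small RNA libraries were read as 50-base single ends; the labels name an Illumina NovaSeq and the paper a HiSeq. The authors removed adapters and reads of other RNA classes, and used ACGT101-miR for annotation, with miRBase and the genome Svevo.v1 as references. The deposited values (unit: signal) are normalised reads counts of the authors. The method behind the factor of each library is not given in the sources that were used here. Of the low values, 94.4 to 96.6% were whole multiples (within 0.02) of 1 step, taken as the value of 1 read. As the rest were not whole, count models were not used.

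Values were tested as log2(value + 1) in R 4.3.3 by limma 3.58.1 (moderated with a mean trend, except for arm ratios), with 4 residual degrees of freedom (3 with an interaction), for sequences and families with a mean of 10 or more, at an adjusted p of 0.05. Intervals of shares are exact binomial 95% intervals on estimated reads. Folding energies were computed with RNAfold 2.7.2. All 8 library columns were mapped, and 0 were left unmapped. The members, lists, tests and alternatives were chosen with earlier results of these data known. Values in all libraries are given for members with a mean of 1000 or more and for called members; others are given by range or, where listed in 1 or 2 libraries, by value. tae-MIR7757-p3_2ss4TC22AG, tae-MIR7757-p5_2ss21AG22TG and bdi-miR5064_L-2R+2 were singled out after their values were seen.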

Additional observations from a re-analysis of the deposited data

Results flagged for a closer look

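Within the 4 libraries of a nutrient level, a value is listed here when its gap to the next library exceeded the 95% critical value of Dixon's test. Of 46 such groups of 4 libraries (21 tested members and 2 family totals), 6 were listed, where chance gives about 1 in 20; parental stress and genotype also vary within each group. tae-MIR7757-p3_1ss19AG was highest of the N libraries in AuCG_N (4367, against 2829 to 3079) and lowest of the C libraries in L6WH_C (1827, against 3992 to 4069). bdi-MIR7757-p3_1ss6AG was highest in L6CG_N (6254, against 1430 to 1934 in the other N libraries). bdi-MIR7757-p3_2ss6AG23TA was highest in AuCG_N (1133, against 426 to 488). tae-MIR7757-p3_2ss4TC22AG was highest of the C libraries in AuWH_C (71.0, against 20.8 to 27.7). tae-MIR9674a-p3_1ss4GA was lowest of the C libraries in AuWH_C (815, against 1184 to 1254).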

How the results depend on the processing

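No called value changed sign among the alternatives run. The falls of ata-miR9674b-3p (-1.17 to -0.85) and tae-MIR9674a-p3_1ss4GA (-1.25 to -0.88) passed under all 17 alternatives; the rise of ata-miR9674c-3p passed under 7 of 17. With N, the number of members called was 2 to 5 over the libraries left out in turn, against 3. These fits called 15.7 to 27.4% of all tested sequences. Without L6CG_N, 5 of 21 members were called, against 27.4% of all. With equal library totals, 1 family total was called with N (miR7757, -0.32, limma adjusted p = 0.0270), against 26% of all families. That scaling moved the median of all family totals to -0.25, against -0.05. For genotype, the member call fell to 0 with a pseudocount of 0.5, without a filter on low values, with a mean of 100 or more (the member was then not tested) and with matched pairs as a block. In that order these settings called 2.15%, 0.95%, 0.855% and 2.15% of all tested sequences. Over left-out libraries 0 to 1 members were called, against 1.82 to 2.81% of all. Family totals with genotype gave 0 to 1 calls over left-out libraries (1 without L6WH_N, miR9674, 0.51, against 4.81% of all families). Arm ratios gave 1 with a pseudocount of 5 and 0 to 1 over left-out libraries (1 without L6CG_C and without L6WH_C). Of all arm ratios, 2.7% were called with a pseudocount of 5, 2.7% without L6CG_C and 1.35% without L6WH_C. The cause of these differences was not tested. Fisher's test gave 26 member calls over the 12 pairs with a minimum of 100 in either library, against 70, and the chi-square test gave 74. Per pair, 7.33 to 38.2% of all sequences passed Fisher's test with that minimum, and 24.9 to 59.5% passed the chi-square test without it. Both families together made up 2.40% of all clear reads, against 22.2% of the miRNA total, because the denominators differ. The labels give no replicate numbers, but the factorial design pairs the libraries. With matched libraries as a block, 2 members were called with N, against 3, the rise of ata-miR9674c-3p being lost, and 133 of all 605 sequences, against 151; with genotype 13 were called, against 16. With 1 pooled library per condition, the spread between plants is unknown, and values near 5 reads cannot show a difference.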

Other observations

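In all, 5 sequences named miR5064 shared 16 to 21 consecutive bases with ata-miR9674b-3p. They were not members, since their names carry another family number; the largest, bdi-miR5064_L-2R+2, had a mean of 528 normalised reads. The miR9674 family total averaged 134106 in the same unit.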
